A study of Mus musculus with 6 samples.

Results

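Brain endothelial nuclei were taken from single-nucleus RNA sequencing of the mouse pons and medulla, the part of the brainstem that houses the circuits for breathing and autonomic control. A nucleus was first kept if 500 or more genes were detected in it and mitochondrial genes gave no more than 5% of its unique molecular identifiers (UMIs, the counted RNA molecules). An endothelial nucleus then had at least 4 UMIs in the sum of Flt1, Slco1a4, Adgrl4, Ptprb, Abcb1a, Mecom and Cldn5, with at least 3 of these 7 genes detected. It also had at most 1 UMI of the oligodendrocyte genes Mog and Mag together, fewer than 8 UMIs of the neuronal RNA Meg3, and at most 1 UMI of the pericyte genes Pdgfrb and Atp13a5 together. The rule held for 841 of 40139 kept nuclei, or 2.10%, out of 43836 barcodes. All mice were male wild-type C57BL6/J. One group lived in chronic intermittent hypoxia (CIH) for 21 days, from postnatal day 22 to 43. Each CIH cycle ran nitrogen into the chamber for 60 seconds, down to 4.5 to 5% oxygen, and then air for up to 5 minutes, back to 21%, with 80 cycles a day over 8 hours. The normoxia group was kept in room air over the same days. Each group had 3 libraries, and the number of mice behind a library is not stated in the labels, so p-values measure the spread between libraries, which may be technical in part.

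Brain endothelial cells line the capillaries, arterioles and venules and form the blood-brain barrier. They are sealed by tight junctions, carry few vesicles, and move glucose, amino acids, lipids and iron through dedicated transporters while efflux pumps return many foreign compounds to the blood. The barrier is induced and kept by Wnt and Norrin signals from the surrounding tissue, and endothelial cells sense low oxygen through hypoxia-inducible factors and answer vascular endothelial growth factor (VEGF) through the receptors encoded by Flt1 and Kdr.

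The endothelial nuclei numbered 83, 70 and 495 in CIH libraries 1, 2 and 3, against 45, 37 and 111 in their normoxia counterparts. They held 153332, 119619 and 747796 UMIs in CIH and 75534, 54610 and 148300 UMIs in normoxia. The third CIH library thus supplied 76.4% of all CIH nuclei of the class. The median endothelial nucleus had 1768, 1495 and 1316 UMIs in CIH and 1423, 1298 and 1139 UMIs in normoxia, below the medians of all kept nuclei in every library (2349 to 3639). Its median mitochondrial share was 0.935, 1.66 and 0.751% in CIH and 0.682, 0.794 and 0.533% in normoxia, above the 0.0624 to 0.366% of all kept nuclei. One pair of libraries shared cell barcodes. The first CIH and the second normoxia library had 1563 barcodes in common, against 3 to 38 for each of the other 14 pairs. The shared barcodes had a median of 7872 UMIs in the CIH library and 984 in the normoxia library, with a median ratio of 7.92. Among endothelial nuclei, 1 of the second normoxia library and 4 of the first CIH library carried a shared barcode, and no barcode was endothelial in both libraries. Results without those barcodes, removed from the second normoxia library alone and from both, are given beside the share of nuclei and the count of genes. Endothelial RNA was also summed and thinned to equal depth. CIH library 3 then had a chi-square per gene of 1.24 to 1.99 to the other libraries. The other 5 had 1.17 to 1.60 among themselves. CIH library 3 was above that range against CIH library 2 (1.72), normoxia library 1 (1.99) and normoxia library 2 (1.81). It was inside the range against CIH library 1 (1.57) and normoxia library 3 (1.24).

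The label of the class was checked with 18 endothelial markers that the rule did not use. For 17 of them the level in endothelial nuclei was at least 32.9 times that in all other kept nuclei, and the median ratio over the 18 was 146. Levels here are a gene's UMIs per 1000000 UMIs of the summed nuclei (CPM), averaged over the 6 libraries. Tie1, a receptor of the angiopoietin system, had a ratio of 371, and the endothelial transcription factors Erg and Sox17 had ratios of 351 and 349. Rapgef5 had a ratio of 2.10 and did not mark the class. Among genes outside the marker lists with at least 100 CPM in the class, the 12 with the highest ratio to other nuclei lay between 272 and 480. They included Robo4, a guidance receptor of endothelial cells, Zfp366, Nostrin, which binds endothelial nitric oxide synthase, Adgrf5, Foxq1, Vwf, the von Willebrand factor gene, and Ly6a. Since the nuclei were chosen by their own RNA, these ratios describe the class and are not a test.

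**Figure D1:**
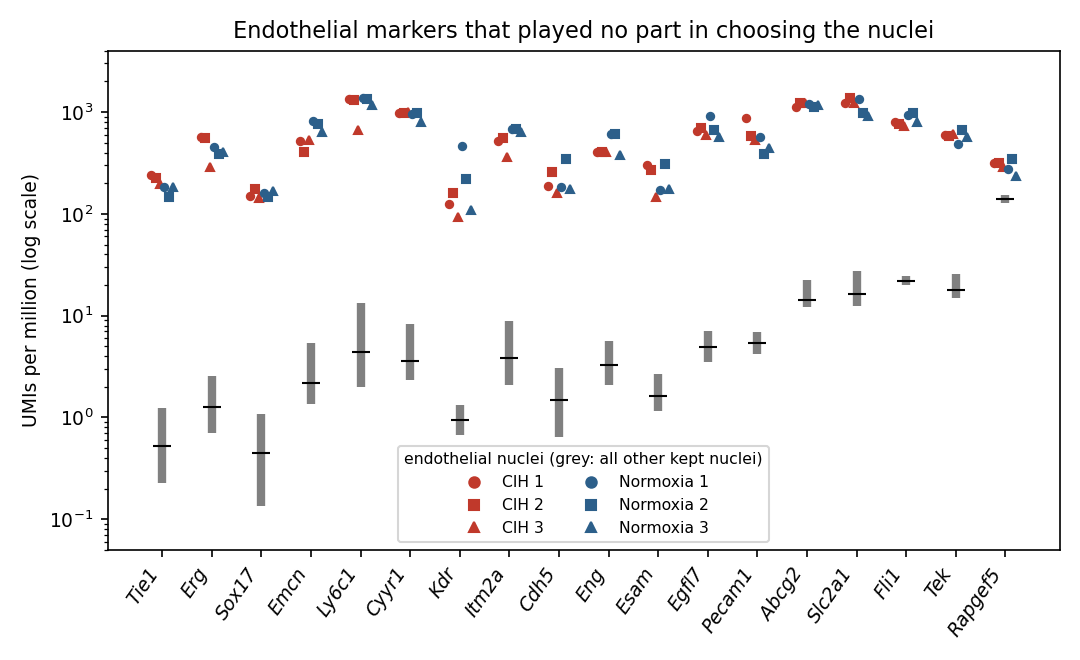
Levels of the 18 endothelial markers outside the rule, in CPM on a log axis, in the endothelial nuclei of each library (coloured points) and in all other kept nuclei (grey bars, range over the 6 libraries, with a black dash at the mean). For every marker except Rapgef5 the points lie far above the bars.

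RNA of other cell types was present in the class, for some types below and for others above its level in the other nuclei. Summed over 12 neuronal markers, endothelial nuclei had 1624 to 2472 CPM, against 11639 to 14222 CPM in the other nuclei. The sum of 10 oligodendrocyte markers came to 1154 to 2561 CPM against 4527 to 6962 CPM, with the highest value in the third CIH library. Mural markers, of which 13 were read, summed to 724, 828 and 405 CPM under CIH against 1019, 1392 and 337 CPM in normoxia, above the 47.5 to 169.5 CPM of other nuclei, and 2 to 7 of them had no UMI in a library. Granule neuron markers came to 1033 to 1471 CPM in endothelial nuclei and 744 to 1862 CPM in the others, and were above the other nuclei in 4 of 6 libraries. Astrocyte markers came to 241 to 733 CPM against 249 to 925 CPM, and were above the other nuclei in the second and the third normoxia libraries. Border macrophage and blood cell markers were above the other nuclei in every library. Of the 7 border macrophage markers 2 to 6 had no UMI in a library, and Lyve1 and Ms4a7 had none in any. In the second CIH and the first and second normoxia libraries this sum came from Stab1 alone. The blood cell genes Cd3e, Cd79a, Itgal and S100a8 had no UMI in any library. The leukocyte gene Ptprc had 0 UMIs in 4 libraries, 5 in the third CIH library and 1 in the third normoxia library. Haemoglobin RNA varied by library, and in the first normoxia library 63 of 65 UMIs of Hba-a1 came from 1 nucleus. In the other direction, the 7 genes of the rule summed in the other nuclei to 49.3, 48.7 and 132 CPM under CIH. In normoxia they summed there to 44.3, 49.9 and 50.8 CPM. The part of these RNAs in the results below was not tested.

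The rule's own genes are given as a description. Flt1, the decoy receptor for VEGF, read 5419.6, 4949 and 4442 CPM under CIH against 4687, 3882 and 4262 CPM in normoxia. Slco1a4, an organic anion transporter of the barrier, read 3783, 4021 and 4568 CPM under CIH against 3297, 3223 and 4079.6 CPM in normoxia. Cldn5, the main tight-junction claudin of brain vessels, was the most uneven of the 7, at 672, 635 and 266 CPM under CIH against 1429.8, 952 and 337 CPM in normoxia. For Cldn5 the third library of each group was its lowest, and the groups overlapped. Only 6 of the 841 nuclei stood at the threshold of 4 marker UMIs. These 6 had a mean of 6.83 UMIs of the 18 markers outside the rule, and 42 nuclei just outside, at a marker sum of 3 or more, had 3.62. The markers were met by 1075 nuclei in all, and the limits on oligodendrocyte, neuronal and pericyte RNA removed 234 of them.

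Endothelial nuclei made up a larger share of kept nuclei in each CIH library than in any normoxia library. The shares were 1.91% (95% exact binomial interval 1.52 to 2.36), 1.57% (1.23 to 1.98) and 4.65% (4.26 to 5.07) in CIH. They were 0.958% (0.699 to 1.28), 0.559% (0.394 to 0.770) and 1.18% (0.974 to 1.42) in normoxia. The intervals cover counting error only. The group means were 2.71 ± 1.69% and 0.900 ± 0.316% (SD, n = 3 libraries each), a difference of 1.81 percentage points. An exact two-sided permutation test gave p = 0.1, which is the smallest value that 3 libraries against 3 allow. The third CIH library set much of the size: without it the difference was 0.841 points, and the CIH libraries were still above the normoxia libraries. Cerebellar granule neurons were 32.5, 34.7 and 8.70% of kept nuclei under CIH against 15.05, 14.5 and 10.0% in normoxia, and among the remaining nuclei the endothelial difference was 2.36 points. Without the shared barcodes it was 1.78 points when they were removed from the second normoxia library and 2.09 points when they were removed from both. Restricted to nuclei with 1000 or more genes and no more than 1% mitochondrial UMIs, called the stricter nuclei below, it was 0.678 points. Other vascular nuclei are given by count, with the totals of kept nuclei. Fibroblasts, a class compared below, numbered 13, 16 and 47 of 4350, 4447 and 10643 in CIH. In normoxia they numbered 7, 7 and 10 of 4698, 6615 and 9386, a smaller share in each library than in any CIH library. Mural nuclei, marked by Pdgfrb and Atp13a5, numbered 19, 20 and 185 in CIH against 21, 14 and 17 in normoxia. A larger share in CIH was thus not particular to the endothelial class. Nuclei were sorted before loading, and the part of the sort and the dissection in these shares was not tested.

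**Figure D2:**
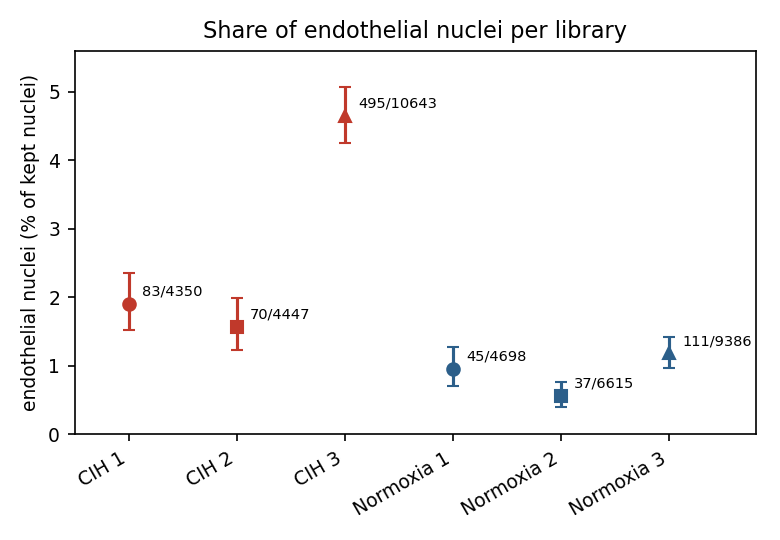
Endothelial nuclei as a percentage of kept nuclei in each library, with exact binomial 95% intervals and the counts behind each share. All 3 CIH libraries lie above all 3 normoxia libraries, and CIH 3, at 4.65%, lies far above the other CIH libraries.

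No single gene passed the test between CIH and normoxia within endothelial nuclei. Counts were summed over the endothelial nuclei of each library and compared with the quasi-likelihood test of edgeR, with p-values adjusted by the Benjamini-Hochberg method over 3052 genes. At an adjusted p under 0.05 there were 0 calls, or 0% of the genes tested, and the smallest adjusted p in edgeR was 0.795. At an unadjusted p under 0.05 there were 167 genes in edgeR (5.47%; 88 or 2.88% higher and 79 or 2.59% lower in CIH) and 73 in DESeq2, which also called 0. Every CIH library was above every normoxia library for 196 genes (6.42%) and below every one for 167 genes (5.47%). The log2 fold change was above 0 for 1482 genes (48.6%), and its median was -0.01. Without the shared barcodes, in the second normoxia library or in both, the count was also 0. From here on, CPM is scaled to the effective library size that edgeR computes, fold changes are CIH relative to normoxia, and a gene is described by values and not as changed. Of the 18 endothelial markers outside the rule 9 had a fold change above 0, 1 lay above and 3 below without overlap, and the median was -0.03. Lists of genes are described by counts and medians, to be read beside the figures for all genes above. The range after a list's median gives its lowest and highest value over all alternatives run, the left-out libraries included, some of which test fewer or more of its genes. Over the same alternatives the median of all genes lay between -0.02 and 0.25. A summed level cannot tell fewer nuclei of one endothelial kind from less RNA per nucleus.

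Among genes at least as abundant in endothelial nuclei as elsewhere, Atp10a had the smallest unadjusted p on the higher side. It encodes a phospholipid flippase of the plasma membrane and read 1673, 1561 and 1871 CPM under CIH against 767, 775 and 1297 CPM in normoxia. The CIH libraries lay close together, and the third normoxia library was the nearest to them (log2 fold change 0.82 with SE 0.225, adjusted p = 0.795 in edgeR). Atp10a lies on chromosome 7 from 58656166 to 58829420 (mm10, plus strand). After thinning each nucleus to 1000 UMIs, the share of endothelial nuclei with an Atp10a UMI was 73, 67.9 and 72.8% under CIH against 50, 51.7 and 63.9% in normoxia. Of other nuclei 0.5 to 2.83% had one. This thinning left out 146 CIH and 54 normoxia nuclei with fewer UMIs. Next came Prkag2, a regulatory subunit of AMP-activated protein kinase, at 181, 249 and 193 CPM under CIH against 132, 92.2 and 74.7 CPM in normoxia (log2 fold change 1.09 with SE 0.319). Ndrg1, a gene induced by low oxygen in many cells, read 388, 326 and 312 CPM under CIH against 212, 258 and 149 CPM in normoxia (log2 fold change 0.79 with SE 0.269). Acacb, the acetyl-CoA carboxylase of the outer mitochondrial membrane, read 116, 103 and 108 CPM under CIH against 26.4, 55.3 and 61.1 CPM in normoxia (log2 fold change 1.11 with SE 0.38). For each of these genes the groups did not overlap in CPM. Thinned to 1000 UMIs, the shares of nuclei with a UMI overlapped between the groups for Prkag2, Ndrg1 and Acacb. For Ndrg1 they were 30.2, 28.6 and 24.0% under CIH against 18.4, 31.0 and 16.7% in normoxia. The other 6 genes of the higher side were Clip1, Dcbld2, Pdxk, mt-Co1, Arhgef3 and Hipk3, with log2 fold changes from 0.65 (mt-Co1) to 1.33 (Dcbld2). Some of these levels rest on few UMIs. Those of Dcbld2 numbered 15, 10 and 71 under CIH against 3, 2 and 5 in normoxia. Pdxk had 31, 28 and 114 against 3, 6 and 15, and Acacb 18, 12 and 83 against 2, 3 and 9. The thinned shares overlapped for Dcbld2, Clip1 and mt-Co1 and did not for Pdxk, Arhgef3 and Hipk3.

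On the lower side Car4 had the smallest unadjusted p. Car4 encodes carbonic anhydrase 4, which sits on the luminal face of brain capillaries and converts carbon dioxide and bicarbonate. It read 278, 420.4 and 280.4 CPM under CIH against 846, 609 and 529.7 CPM in normoxia, with means of 326 ± 81.6 CPM in CIH and 662 ± 165 CPM in normoxia (SD, n = 3). Each normoxia library was above each CIH library (log2 fold change -1.04 with SE 0.252, adjusted p = 0.795 in edgeR). Car4 lies on chromosome 11 from 84957786 to 84966044 (mm10, plus strand). The UMIs behind these levels numbered 43, 49 and 216 under CIH against 64, 33 and 78 in normoxia. The share of nuclei with a Car4 UMI, thinned to 1000 UMIs, was 22.2, 30.4 and 21.1% under CIH against 47.4, 51.7 and 33.3% in normoxia. Of other nuclei 1 to 4.5% had one. With any 1 library left out, the log2 fold change of Car4 lay between -1.19 and -0.80. Ivns1abp, an actin-binding protein of the kelch family, read 271, 300.3 and 265 CPM under CIH against 516, 664 and 380.3 CPM in normoxia (log2 fold change -0.86 with SE 0.244), and Hmcn1, the extracellular matrix protein hemicentin, 1499, 1244 and 1888 CPM under CIH against 2923, 2398 and 2187 CPM in normoxia (log2 fold change -0.68 with SE 0.206). Another 6 were Gtf3c2, Eif3k, Galnt11, H2afz, Dynll1 and Mapk6, with log2 fold changes from -1.16 (Eif3k) to -0.92 (Dynll1). Few UMIs lie behind some of these too, and those of Eif3k numbered 7, 10 and 42 under CIH against 11, 7 and 18 in normoxia.

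**Figure D3:**
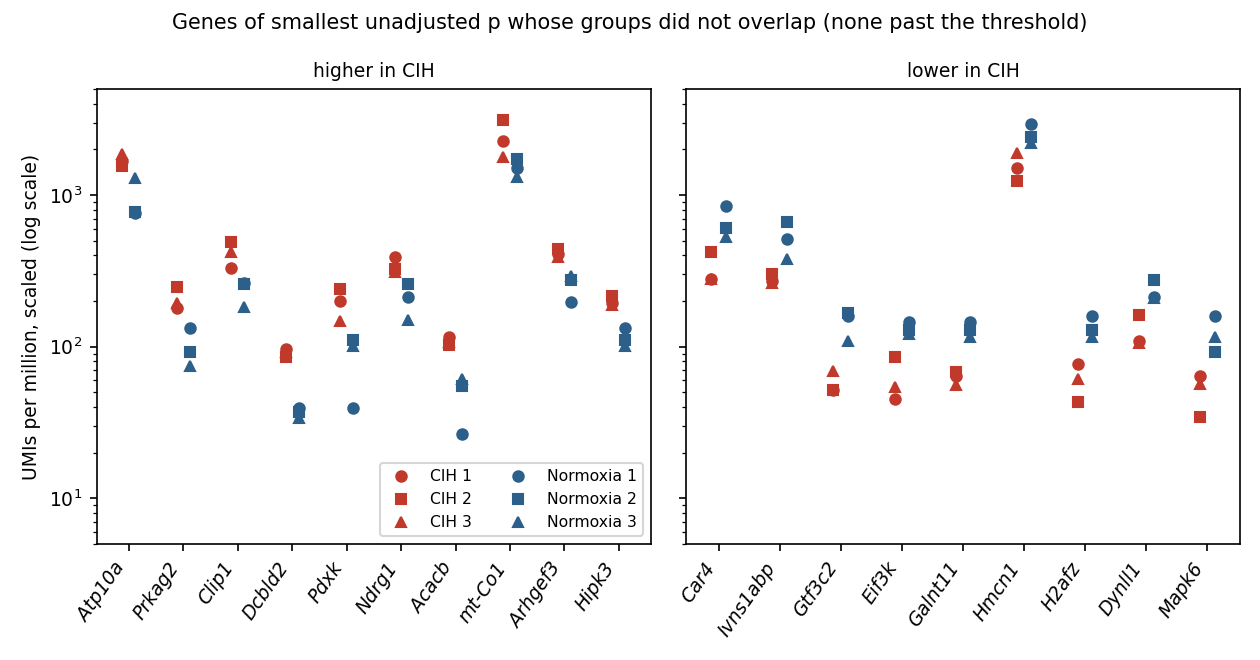
Levels of up to 10 genes per direction, ribosomal protein genes not drawn, with the smallest unadjusted p among those whose groups do not overlap and that are at least as abundant in endothelial as in other nuclei. Each point is 1 library (CPM scaled to effective library size, log axis). The genes were selected for this separation, and none passed the adjusted threshold.

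Genes more abundant in other nuclei were outside that selection, and 3 of them with small unadjusted p-values were chosen after their values were seen. Cdh13, a cadherin that binds adiponectin, read 478, 240.2 and 227 CPM under CIH against 172, 36.9 and 34 CPM in normoxia (log2 fold change 2.02 with SE 0.513). Its UMIs numbered 74, 28 and 175 under CIH against 13, 2 and 5 in normoxia, and 15 of the 74 in the first CIH library came from 1 nucleus. With 1 library left out, its log2 fold change lay between 1.46 and 3.15, the last without the first normoxia library. Pde4d, a cyclic AMP phosphodiesterase, read 407, 549 and 544 CPM under CIH against 833, 1549 and 883 CPM in normoxia (log2 fold change -1.09 with SE 0.252), and the transcription factor gene Hivep2 685, 515 and 567 CPM under CIH against 264, 387 and 272 CPM in normoxia (log2 fold change 0.97 with SE 0.235). After thinning, 42 to 59.2% of other nuclei had a Pde4d UMI, and the part of RNA from other cells in its level here was not tested.

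Capillary genes lay mostly lower in CIH. Of the 18 genes on the list of capillary markers 17 were tested, 12 had a fold change below 0 and 5 above, 7 were below and 1 above without overlap, and 0 were called. The median log2 fold change was -0.31 against -0.01 over all genes, and -0.27 without the third CIH library. The lowest and highest medians with 1 library left out were -0.39 and -0.18, and without a filter on low counts the median was -0.09, while that of all genes was 0.25. The summed mural markers, given above, were highest in the first and second normoxia libraries, and their part in these values was not tested. Car4, Ivns1abp and Hmcn1, above, had the smallest unadjusted p-values of the list. Nampt, which makes the precursor of NAD, read 96.9, 180.2 and 187 CPM under CIH against 264, 332 and 258 CPM in normoxia (log2 fold change -0.81 with SE 0.294). Mfsd2a, the transporter of the omega-3 lipid DHA that also limits vesicle traffic, read 84, 112 and 118 CPM under CIH against 225, 166 and 129 CPM in normoxia (log2 fold change -0.63 with SE 0.315). The third normoxia library lay close to the CIH libraries for Mfsd2a, and without the first the log2 fold change was -0.37. Tfrc, the transferrin receptor that takes up iron, read 258, 412 and 396 CPM under CIH against 661, 350.4 and 679 CPM in normoxia (log2 fold change -0.70 with SE 0.268), with the second normoxia library inside the CIH range. Sgms1, a sphingomyelin synthase, went the other way, at 3398, 3286 and 3797 CPM under CIH against 2552, 2287 and 2818 CPM in normoxia (log2 fold change 0.45 with SE 0.178).

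**Figure D4:**
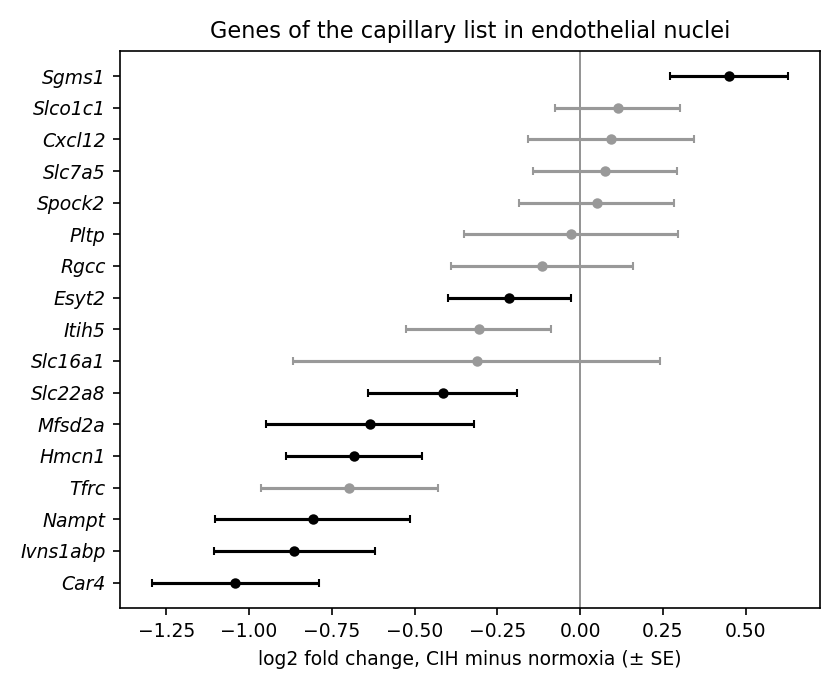
Log2 fold change (CIH minus normoxia) with its standard error for the 17 tested genes of the capillary list. Black points mark genes whose CIH and normoxia libraries do not overlap. Car4 is lowest at -1.04 and Sgms1 highest at 0.45.

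Read as zones of the vessel tree, the summed levels overlapped between the groups. The whole capillary list, tested or not, summed to 14726, 14421 and 14222 CPM of endothelial UMIs under CIH against 17595, 14723 and 14005 CPM in normoxia. The 23 arterial genes summed to 6404, 6688 and 4524 CPM under CIH against 8685, 7178 and 5226 CPM in normoxia. The 20 venous genes summed to 3241, 3160 and 2893 CPM under CIH against 3442, 3662 and 3156 CPM in normoxia. For the arterial list the third library was the lowest of each group. Bsg, which encodes basigin, carried much of that list but was not confined to a few nuclei. After the same thinning, 79.4, 83.9 and 55.6% of nuclei had a Bsg UMI under CIH against 86.8, 79.3 and 73.6% in normoxia. Bsg read 3069, 4015 and 1303 CPM under CIH against 5607, 5109 and 2295 CPM in normoxia (log2 fold change -0.64 with SE 0.374). Its log2 fold change was -0.28 without the third CIH library, -0.38 without the first normoxia library and -0.96 without the second CIH library. Vwf, on the venous list, read 317, 498 and 147 CPM under CIH against 145, 184 and 169.8 CPM in normoxia (log2 fold change 0.83 with SE 0.423). Its log2 fold change was 0.41 without the second CIH library and 1.27 without the third. Of 9 arterial genes tested 4 were above 0 and 5 below, with a median of -0.08 (range -0.62 to 0.16), and of 8 venous genes 3 were above and 5 below, with a median of -0.28 (range -0.42 to 0.56). Both medians thus changed sign over the alternatives. The highest arterial median was the one without the third CIH library. With 1 library left out the venous median stayed between -0.42 and -0.06.

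Of the junctional genes of the barrier, 7 of 11 lay above 0, with a median of 0.24 (range 0.03 to 0.42). Cldn5, a gene of the rule given above, was not on this list. Its mean was lower in CIH, at 524 against 906 CPM before scaling, with overlap. Without overlap 2 were above and 1 below, and 0 were called. Ocln, the gene of occludin in tight junctions, read 375, 506 and 376 CPM under CIH against 331, 277 and 272 CPM in normoxia (log2 fold change 0.50 with SE 0.235). Magi1, a scaffold protein of junctions, read 633, 601 and 537 CPM under CIH against 516, 350.4 and 367 CPM in normoxia (log2 fold change 0.52 with SE 0.221), but other nuclei carried it at a like level. Tjp1, the scaffold ZO-1, read 2151, 1810.1 and 2103 CPM under CIH against 1627, 1402 and 2058 CPM in normoxia and overlapped (log2 fold change 0.24 with SE 0.195). Pecam1, the platelet endothelial adhesion molecule, read 872, 601 and 514 against 569, 387 and 448 CPM for CIH against normoxia (log2 fold change 0.48 with SE 0.25, or 0.25 without the first CIH library). Ctnnb1, the gene of beta-catenin, lay lower, at 258, 266 and 195 CPM under CIH against 370.3, 369 and 306 CPM in normoxia (log2 fold change -0.56 with SE 0.246).

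The transporters that bring nutrients into the brain were split, with 10 of 22 above 0, 3 below and 0 above without overlap, and a median of -0.04 (range -0.22 to 0.19). Slc40a1, ferroportin, which exports iron, read 207, 232 and 195 CPM under CIH against 449.6, 369 and 272 CPM in normoxia (log2 fold change -0.77 with SE 0.259). Every CIH library was below every normoxia library for this gene, while for Tfrc the groups overlapped. Slc7a1, the carrier of cationic amino acids, read 362, 266 and 529.7 CPM under CIH against 714, 498 and 537 CPM in normoxia (log2 fold change -0.53 with SE 0.264). Its log2 fold change ran from -0.32 without the second CIH library to -0.88 without the third, and was -0.35 without the first normoxia library. Slc2a1, the glucose carrier GLUT1 of the barrier, read 1215, 1407 and 1189 CPM under CIH against 1349, 996 and 924 CPM in normoxia, and the groups overlapped (log2 fold change 0.22 with SE 0.201). Slco1c1, the thyroxine carrier, read 1679.7, 2170.4 and 1746 CPM under CIH against 1944, 1623 and 1596 CPM in normoxia and overlapped too (log2 fold change 0.11 with SE 0.188). Of 6 efflux pumps and barrier enzymes tested, 3 were above 0 and 3 below, with a median of -0.05 (range -0.17 to 0.14). The lowest after Car4 was Abcc6, a pump of the ABC family, at 84, 68.6 and 113 CPM under CIH against 106, 203 and 224 CPM in normoxia (log2 fold change -0.93 with SE 0.336), or -0.60 without the third normoxia library.

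Caveolae carry material across endothelial cells in vesicles. Of 6 genes of this group 5 were above 0, 1 without overlap, with a median of 0.31 (range -0.16 to 0.54). Cavin2, a coat protein of caveolae, read 265, 377 and 142 CPM under CIH against 145, 73.8 and 88.3 CPM in normoxia (log2 fold change 1.24 with SE 0.425), with the third CIH library just inside the normoxia range. Dnm2, the dynamin that pinches vesicles off, read 245, 257 and 258 CPM under CIH against 119, 221 and 177 CPM in normoxia (log2 fold change 0.58 with SE 0.276). With the stricter nuclei the median of this group was -0.16.

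Genes of the hypoxia-inducible factor (HIF) system did not lie to one side. Of 33 genes on the list 10 were tested, 4 were above 0 and 6 below, 1 on each side without overlap, with a median of -0.09 (range -0.30 to 0.33). Ndrg1, above, was the one higher and Bnip3l, a gene of mitochondrial clearance, the one lower without overlap. With the stricter nuclei the log2 fold change of Ndrg1 was -0.06. Epas1, which encodes HIF-2 alpha, the main HIF of endothelium, read 930.3, 703 and 858 CPM under CIH against 648, 682 and 761 CPM in normoxia (log2 fold change 0.25 with SE 0.197). Hif1a read 71.1, 94.4 and 80.5 CPM under CIH against 13.2, 92.2 and 40.7 CPM in normoxia (log2 fold change 0.88 with SE 0.494), from UMIs that numbered 11, 11 and 62 under CIH against 1, 5 and 6 in normoxia, and the second normoxia library was within the CIH range. Without that library the log2 fold change of Hif1a was 1.40, and without the first it was 0.54. Tfrc and Slc2a1, both textbook HIF targets, lay on opposite sides of 0. Their promoters, chosen after these values were seen, are shown because HIF binds the core letters ACGTG or GCGTG. Both strands were searched in the RefSeq promoter table (GRCm38.p6), which gives 250 bases before and 50 after a start, and 43.8% of its 32851 promoters hold a match. Of the 10 tested genes 6 matched the table, and Ndrg1, Epas1, Bnip3l and Nos3 did not. Both sequences are 5′ to 3′ on the plus strand, with each match on either strand in capitals. The Slc2a1 promoter (chr4:119108495-119108794) holds 2 matches and that of Tfrc (chr16:32608646-32608945, the first of 2 starts listed) holds 3. A match is a run of letters and not a measured binding site.
Slc2a1: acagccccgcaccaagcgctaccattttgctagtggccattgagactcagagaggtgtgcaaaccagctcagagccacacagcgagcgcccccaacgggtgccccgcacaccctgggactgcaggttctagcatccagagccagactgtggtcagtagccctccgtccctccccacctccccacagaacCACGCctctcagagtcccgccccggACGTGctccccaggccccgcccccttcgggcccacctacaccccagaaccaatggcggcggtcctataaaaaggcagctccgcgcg
Tfrc: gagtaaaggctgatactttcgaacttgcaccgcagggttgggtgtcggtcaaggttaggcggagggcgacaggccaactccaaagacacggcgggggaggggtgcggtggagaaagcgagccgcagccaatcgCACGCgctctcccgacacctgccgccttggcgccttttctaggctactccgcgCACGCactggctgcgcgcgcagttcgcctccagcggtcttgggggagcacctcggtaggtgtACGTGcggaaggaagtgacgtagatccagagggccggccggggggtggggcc

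In the VEGF, angiopoietin and TIE system 5 of 13 genes were above 0, 1 above and 2 below without overlap, with a median of -0.22 (range -0.36 to 0.00). Leaving out the second normoxia library gave -0.05, and leaving out the third CIH library -0.06. Kdr, the main signalling receptor for VEGF, read 123, 163 and 89.6 CPM under CIH against 463, 221 and 109 CPM in normoxia (log2 fold change -1.10 with SE 0.449). The first normoxia library carried much of this, and without it the log2 fold change of Kdr was -0.33. The endothelial transcription factor genes Ets1, at 278, 395 and 386 CPM under CIH against 423, 406 and 564 CPM in normoxia, and Fli1, at 795, 781 and 706 CPM under CIH against 939, 978 and 801 CPM in normoxia, lay lower without overlap (log2 fold changes -0.42 and -0.25). That of Ets1 was -0.27 with the first CIH library left out and -0.21 with the third normoxia library left out. Only 2 genes of the list of tip cells and vessel growth could be tested, and both overlapped between the groups.

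In the Wnt and Norrin system, which keeps the barrier, 8 of 19 genes were above 0, with a median of -0.04 (range -0.22 to 0.14). The Norrin co-receptor Lrp5 read 103, 94.4 and 136 CPM under CIH against 39.7, 92.2 and 67.9 CPM in normoxia (log2 fold change 0.86 with SE 0.372), and Nkd1, a feedback inhibitor of Wnt signalling, 109.8, 112 and 112 CPM under CIH against 198, 148 and 197 CPM in normoxia (log2 fold change -0.73 with SE 0.275). They lay on opposite sides, and in neither did the groups overlap. The Notch and BMP list had 5 of 13 above 0 and a median of -0.18 (range -0.40 to 0.01), which was -0.03 with the first normoxia library left out and -0.04 with the third CIH library left out. Its gene of smallest unadjusted p was Tgfbr3, the co-receptor betaglycan, at 213, 232 and 214 CPM under CIH against 357, 350.4 and 238 CPM in normoxia (log2 fold change -0.48 with SE 0.254).

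Genes that answer glucocorticoids lay on both sides of 0. Of 12 tested 7 were above 0, 3 without overlap and 0 below without overlap, and the median was 0.24 (range -0.29 to 0.48). It was 0.09 without the third normoxia library, 0.43 without the first and -0.29 with sums thinned to the smallest library. Tsc22d3, known as Gilz and a standard glucocorticoid target, read 84, 129 and 139 CPM under CIH against 39.7, 73.8 and 67.9 CPM in normoxia (log2 fold change 0.99 with SE 0.378). Its UMIs numbered 13, 15 and 107 under CIH against 3, 4 and 10 in normoxia. Xdh, xanthine dehydrogenase, which can produce oxidants, read 219.7, 197 and 228 CPM under CIH against 159, 166 and 115 CPM in normoxia (log2 fold change 0.63 with SE 0.277). Zbtb16, a transcription factor gene that glucocorticoids induce, read 265, 412 and 948 CPM under CIH against 119, 73.8 and 394 CPM in normoxia (log2 fold change 1.33 with SE 0.505). For Zbtb16 the third library of each group was its highest, and the log2 fold change was 0.53 with the third CIH library left out and 2.54 with its normoxia counterpart left out. Galnt15, a glycosyltransferase gene, read 162, 146 and 147 CPM under CIH against 132, 111 and 34 CPM in normoxia (log2 fold change 0.91 with SE 0.412), and its log2 fold change was 0.31 without the third normoxia library.

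Genes of endothelial activation had 6 of 11 above 0 and a median of 0.14 (range -0.66 to 0.31), which was -0.22 with the second CIH library left out and -0.26 with the third normoxia library left out. Vcam1, an adhesion molecule for leukocytes, read 116, 223 and 64.9 CPM under CIH against 145, 959 and 122 CPM in normoxia (log2 fold change -1.62 with SE 0.685). In the second normoxia library 50 of its 52 UMIs came from 1 nucleus, and without that library the log2 fold change was -0.16. Il1r1, the interleukin-1 receptor, read 446, 455 and 454 CPM under CIH against 264, 111 and 421 CPM in normoxia (log2 fold change 0.63 with SE 0.31), or 0.38 with the second normoxia library left out and 1.22 with the third. In the first CIH library 23 of its 69 UMIs came from 1 nucleus, and in the second 12 of 53. In the first normoxia library it was 9 of 20. The basement membrane list had 7 of 15 above 0, 3 above without overlap, and a median of -0.01 (range -0.25 to 0.25). Timp3, an inhibitor of matrix proteases, read 336, 420.4 and 473 CPM under CIH against 238, 148 and 319 CPM in normoxia (log2 fold change 0.73 with SE 0.272), and Lamc1, the gamma chain of laminin, 136, 146 and 152 CPM under CIH against 119, 111 and 40.7 CPM in normoxia (log2 fold change 0.87 with SE 0.385). The third normoxia library was the low one for Lamc1, and without it the log2 fold change was 0.36. Lamb2, a laminin beta chain, went the other way at 38.8, 112 and 57.1 CPM under CIH against 132, 129 and 95.1 CPM in normoxia (log2 fold change -0.85 with SE 0.403). The redox and stress list had 4 of 12 above 0 and a median of -0.30, which was 0.06 with the first normoxia library left out and -0.02 with the third CIH library left out. Its gene Hsp90ab1, a chaperone, read 349, 403 and 359.6 CPM under CIH against 555, 424 and 455 CPM in normoxia (log2 fold change -0.38 with SE 0.213), or -0.24 without the first normoxia library. The list of vascular tone had 5 of 7 above 0, with a median of 0.09 (range -0.29 to 0.27). The immediate early genes had 4 of 6 above 0, with a median of 0.20 (range -0.39 to 0.62), and the nuclear long noncoding RNAs 1 of 7, with a median of -0.14 (range -0.28 to 0.05). Among the last, Snhg11 read 401, 326 and 325 CPM under CIH against 569, 646 and 618 CPM in normoxia (log2 fold change -0.81 with SE 0.206). It was more abundant in other nuclei, at a mean of 2564 CPM in CIH and 3239 CPM in normoxia, and after thinning 49.2 to 69.3% of them had a UMI of it. The part of RNA from other cells in its level here was not tested.

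Ribosomal protein genes and mitochondrially encoded RNAs lay mostly to one side. Of 74 ribosomal protein genes, a list chosen after its values were seen, 65 lay below 0 and 9 above, 15 below and 2 above without overlap, with a median of -0.38 and 0 calls. Rpl15 read 174, 163 and 135 CPM under CIH against 370.3, 277 and 217 CPM in normoxia (log2 fold change -0.87 with SE 0.283), and Rpl37a 96.9, 163 and 100 CPM under CIH against 212, 277 and 183 CPM in normoxia (log2 fold change -0.92 with SE 0.307). The median with 1 library left out lay between -0.54 and -0.21. Ribosomal protein genes have many near-identical pseudogenes, so the counts of single genes are uncertain. All 11 mitochondrially encoded RNAs tested were above 0, 2 without overlap, with a median of 0.29. That median was -0.0012 without the second CIH library and -0.07 with nuclear depth (median UMIs) as a covariate. mt-Co1 read 2255, 3139.8 and 1768 CPM under CIH against 1508, 1734 and 1311 CPM in normoxia (log2 fold change 0.65 with SE 0.228) and mt-Co3 2959, 3886 and 3398 CPM under CIH against 2632, 2785 and 2438 CPM in normoxia (log2 fold change 0.38 with SE 0.182). The mitochondrial share of endothelial nuclei, given above, was used as an upper limit in choosing nuclei.

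**Figure D5:**
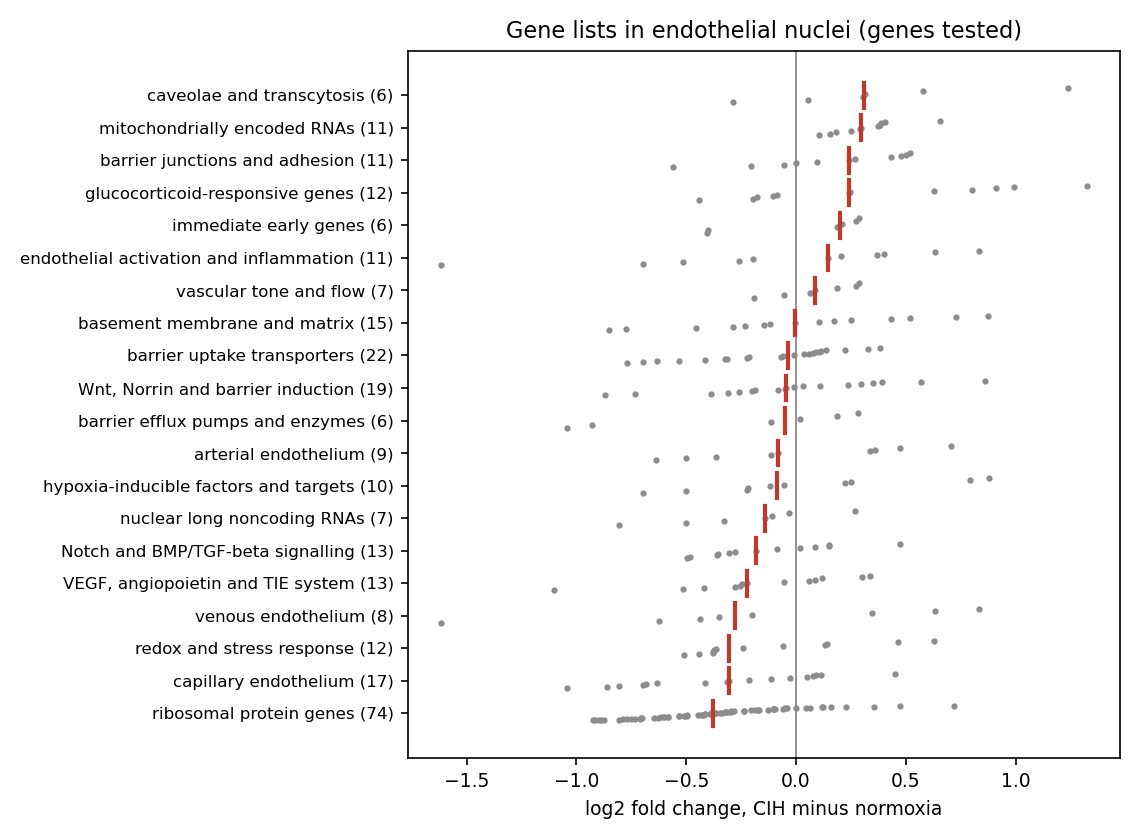
Log2 fold change (CIH minus normoxia) of each tested gene (grey points) in every list with at least 5 tested genes, with the list's median as a red bar and the number of genes in brackets. Most lists spread on both sides of 0, the ribosomal protein genes have the lowest median (-0.38), and caveolae the highest (0.31).

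Whether a CIH difference in endothelial nuclei differed from that in other cells of the same libraries was tested against 1421 microglia, 12250 oligodendrocytes and 100 fibroblasts. limma on the difference in log2 CPM called 0 of 2604, 0 of 2905 and 0 of 284 genes at an adjusted p under 0.05 (0% each). At an unadjusted p under 0.05 there were 120, 136 and 20. No CIH difference was therefore shown to be particular to endothelium. For Car4 the log2 difference was -1.01 in endothelial nuclei and 0.39 in oligodendrocytes (difference -1.39, SE 0.415, adjusted p = 0.871 in limma). Ndrg1 read 0.75 and -0.03 (difference 0.77, SE 0.300, adjusted p = 0.871 in limma), while Atp10a read 0.89 and 1.01 in the same 2 classes. On the same scale, 62 of 74 ribosomal protein genes lay below 0 in endothelial nuclei, with a median of -0.36. In oligodendrocytes 1 of 74 lay below 0 with a median of 0.25, and in microglia 41 of 74 with a median of -0.03. The mitochondrially encoded RNAs lay above 0 in oligodendrocytes as well, 11 of 11, and in microglia 9 of 9.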

How the data were processed

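The deposited matrices hold raw UMI counts of 32285 genes. The authors ran Cell Ranger to make them, in version 6.1.2 per the file headers. The submitters' processing notes give 3.1.0, with Seurat 4.0 and the mm10 genome. Intron counting is not given in the sources used here. The members, gene lists, lists of markers and rule for naming genes were chosen with earlier results of these data known.

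Counts of endothelial nuclei were summed per library and compared in edgeR 4.0.16 (R 4.3.3; TMM scaling, filterByExpr, quasi-likelihood test, Benjamini-Hochberg adjustment, threshold 0.05). DESeq2 1.42.0 was an alternative. Differences between classes used limma 3.58.1 with a prior count of 1. SE is that of the log2 fold change. Sums ranged from 54610 to 747796 UMIs, which limits the precision of low genes. The script was tested on simulated data. Doublets were not called. Removing the top Scrublet scores (scanpy 1.11.5; 0.8% per 1000 barcodes), which marked 55 members, was an alternative. The others were RLE scaling, no low-count filter, the replicate block, median UMIs as a covariate, stricter nuclei or markers (a sum of 6 with 4 genes), thinned sums, genes enriched in the class, a prior count of 0.5, a share without granule neurons, and each library left out. Leaving out the shared barcodes, from 1 or both libraries, was added after the data were seen.

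Named genes were the 10 per direction of smallest unadjusted p among genes with no overlap and at least as abundant in the class as elsewhere (1 predicted gene was passed over), genes of each list by smallest p or highest level, the 12 of highest ratio to other nuclei and the markers. Positions are from GENCODE M21 on mm10. Promoters are from RefSeq. One result is not reported here.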

Additional observations from a re-analysis of the deposited data

How the results depend on the processing

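The count of genes called between CIH and normoxia, 0 in edgeR, was also 0 with RLE scaling, DESeq2, stricter nuclei, stricter markers, top Scrublet scores removed, thinned sums, genes enriched in the class, the shared barcodes left out of 1 or both libraries and each library left out (range 0 to 0). It was 4 with no filter on low counts (Vcam1, Cdh13, Zbtb16 and Ttr) and 3 with nuclear depth (median UMIs) as a covariate (Plcl1, Zbtb16 and Cldn5, the last a gene of the rule). The labels link same-numbered libraries by their number only. Their deviations correlated at 0.094, 0.062 and 0.307, and the second CIH library correlated best with the first normoxia library, at 0.087. The third CIH library correlated at -0.183 and -0.089 with the first and second normoxia libraries. The third normoxia library correlated at -0.133 and -0.168 with the first and second CIH libraries. By this measure the third libraries lay nearest to each other. The correlations of a library nearly cancel over the other group, so the negative values are not separate evidence from the 0.307. With the replicate number as a block, 5 genes were called (Atp10a, Cdh13 and Zbtb16 higher, Car4 and Pde4d lower). The differences between classes gave 0 calls under every alternative run, the replicate block included. The cause of these shifts was not tested.

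The share difference stayed positive, from 0.841 to 2.38 points with a library left out. Of the genes whose effects are printed, Ndrg1 turned to -0.065 with stricter nuclei, and the rest kept their sign. Of 374 list medians under alternatives, 49 moved by more than their spread, and the ranges in the report show which changed sign. The stricter nuclei left 539 genes to test and the thinned sums 1181. The smallest sum, 54610 UMIs from 37 nuclei, limits the genes of low level. With 3 libraries a group, a p that misses the threshold does not show that levels were alike.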
